A study of Drosophila melanogaster with 7 samples.

Results

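Salivary glands of 2 fly lines that each carry a heat-shock GAL4 transgene at a different insertion were compared, using every fly probe set of an Affymetrix array. The members were the 3 arrays of line X1 and the 2 arrays of line 89, 5 of the 7 arrays in the series, and the 18769 probe sets that are not Affymetrix controls. Animals of line X1 carried 2 copies of P{hs-GAL4}X1. Line 89 has the insertion P{GAL4-Hsp70.PB}89-2-1, and the glands of its first array had 2 copies of it and those of its second had 1. Both lines were heat shocked for 30 min at 37 °C at 9 h after puparium formation. The 2 arrays of w1118 control animals, to which each line was referred, had the same shock at 9.5 h. All animals were otherwise kept at 25 °C, and all glands were dissected at 14 h. Each line is a single insertion, the labels do not give the number or sex of the animals behind an array, and they do not give the background in which either insertion was kept. Insertion and background therefore cannot be told apart between the lines, and shock time and background cannot be told apart from GAL4 in any comparison with w1118.

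GAL4 is a transcription activator from budding yeast, where it switches on the genes for galactose use, and it has no counterpart in flies. Fly workers place it under a promoter of choice, here the Hsp70 heat-shock promoter, and use it to drive transgenes. A P element inserts at different places in different lines, so lines with the same transgene can differ in how much activator they make and in the genes beside the insertion. Late prepupal salivary glands have finished secreting glue protein and are close to the steroid-triggered cell death that removes them. The expression of their genes at this stage follows pulses of the hormone ecdysone.

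Values are intensities as the authors deposited them, already normalised between arrays. They were raised to a floor of 16 where lower and converted to log2, and a difference is X1 minus line 89 on that scale, with the standard error from the linear model program limma. A probe set was called where the Benjamini-Hochberg adjusted p over all 18769 was under 0.05. With both line 89 arrays in 1 group, the difference between 2 copies and 1 copy counted as spread.

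Median intensity was 33.7, 37.2 and 38.0 in the X1 arrays, 44.9 in line 89 with 2 copies, 40.8 with 1 copy, and 42.2 and 42.5 in w1118. Between 18.8% and 30.0% of probe sets lay under 16, the highest share in X1 replicate 1. That array correlated with the other X1 arrays at 0.958 and 0.956, against 0.985 between replicates 2 and 3. The 2 line 89 arrays correlated at 0.935, and X1 arrays with line 89 arrays at 0.916 to 0.945. The bacterial control RNAs had less 5′ signal relative to 3′ in X1. The ratio for dap was 0.0447, 0.0622 and 0.0508 in X1, 0.269 and 0.278 in line 89, and 0.472 and 0.344 in w1118. For the fly Act5C transcript the ratio was 0.496 to 0.582 in X1, inside the 0.470 and 0.691 of line 89. For GAPDH it was 0.266, 0.308 and 0.243 in X1, below the 0.320 and 0.326 of line 89. The 2-copy line 89 array stood apart in the 18S rRNA controls, whose 3′ probe set read 63.0 to 63.6 in X1, 574 in line 89 with 2 copies, 147 with 1 copy, and 113 and 68.3 in w1118. The part of these differences between arrays in the results below was not tested. Among glue and gland identity genes, limma called 0 of 20 between the lines (2 at an unadjusted p under 0.05), where 2.36% of all genes were called. The glue genes Sgs7 (1593, 1438 and 1475 in X1, 1953 and 964 in line 89) and Sgs3 (1254, 1899 and 1630 in X1, 1405 and 592 in line 89) were well above the floor in every array.

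Between X1 and line 89, 371 probe sets were called, 1.98% of those tested. Of these, 137 were higher in X1 (0.73%) and 234 were lower (1.25%). The direction was lopsided mainly among dim probe sets. Where the brighter line averaged under 100, 22 were higher and 124 lower, whereas where it averaged at least 1000, 49 were higher and 22 lower. A change of at least 4-fold was seen for 42 of the higher and 42 of the lower calls, and of at least 8-fold for 13 and 16. The intensities of the lines did not overlap for any of the 371, nor for 35.2% of all probe sets. Another 87 probe sets were at least 4-fold higher and 89 at least 4-fold lower without being called. The split depended on how arrays were put on 1 scale, with 36.9% of calls higher as reported, 64.1% with the arrays set to a common median, 55.6% after quantile normalisation and 28.3% after scaling to the hybridization controls.

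The number of calls rested on single arrays. Without X1 replicate 1 there were 186 calls. Without X1 replicate 2, and likewise without replicate 3, limma made 0 calls at the adjusted threshold, with 2922 and 3120 probe sets at an unadjusted p under 0.05, against 3618 with all arrays. Leaving out either w1118 array gave 70 calls. Against the 2-copy line 89 array alone, which matches X1 in copy number, there were 985 calls, and against the 1-copy array alone 1138, with the lone array assumed to vary like the other groups. Every call named below was thus lost in the fits without X1 replicate 2 or 3. Of 61 called values followed through up to 20 alternative settings, 58 kept their direction in every setting run. The other 3, Orc2, AkhR and mthl15, had a difference of 0 with a floor of 64, and 0 values reversed. Most settings could not have reversed a direction. Variance models, the stricter threshold, the brightness filter, grouping by copy number and dropping w1118 left the difference between the lines unchanged. As the lines did not overlap for any call, other floors or leaving out an array could not reverse it either. Only the scalings and the replicate block could.

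**Figure D1:**
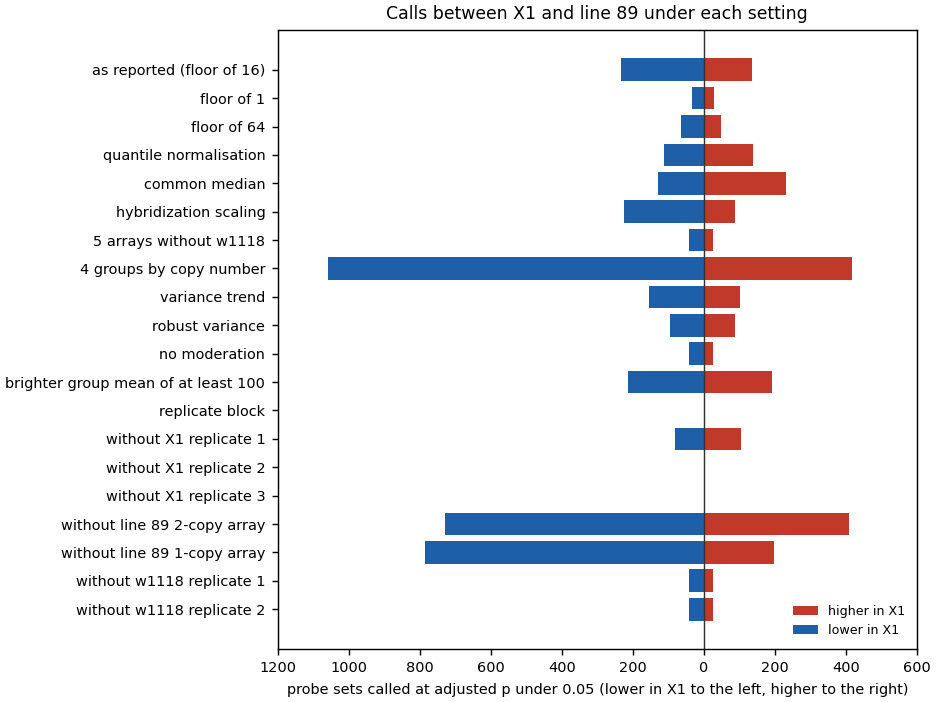
Bars give the number of probe sets called between X1 and line 89 at an adjusted p under 0.05 under each setting, with those higher in X1 to the right and those lower to the left. As reported, 137 were higher and 234 lower, and both bars are empty without X1 replicate 2, without X1 replicate 3 and with the replicate block.

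Each called probe set was then set against w1118 in the same fit, to see which line departed. A line departed where it was called against w1118, and a line not called may still differ from it. X1 was called against w1118 at 15.2% of all probe sets and line 89 at 4.38%. The p-values were adjusted for each line apart, so with more calls in X1 a larger unadjusted p passed there. In Rpt2, line 89 was not called at an unadjusted limma p of 0.0026, while X1 was called at 0.0067. X1 also had 3 arrays against 2 for line 89, which gave it the smaller standard error. The classes therefore lean towards X1 alone. These comparisons share arrays with one another, so the classes below are descriptions. Of the 371, X1 alone was called against w1118 for 244 (101 higher than line 89 and 143 lower). Line 89 alone was called for 47 (4 where X1 was the higher line and 43 where it was the lower). Both lines were called on the same side of w1118 for 37 and on opposite sides for 8, and neither was called for 35. X1 lay farther from w1118 than line 89 did for 286 and line 89 farther for 85. Where X1 was higher the count was 125 against 12, and where it was lower 161 against 73.

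This balance moved with the arrays and the scale used. With the 2-copy line 89 array alone, X1 alone was called for 335 and line 89 alone for 420. With the 1-copy array alone the counts were 645 and 194. After scaling to the hybridization controls they were 125 and 134. In the class where both lines moved the same way, X1 was the farther line for all 37, and line 89 stood at a median of 0.473 of the X1 change on the log2 scale. As these 37 were selected for a difference between the lines, that median does not describe all probe sets moved in both lines. Another 405 called above w1118 in both lines were not called between them.

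**Figure D2:**
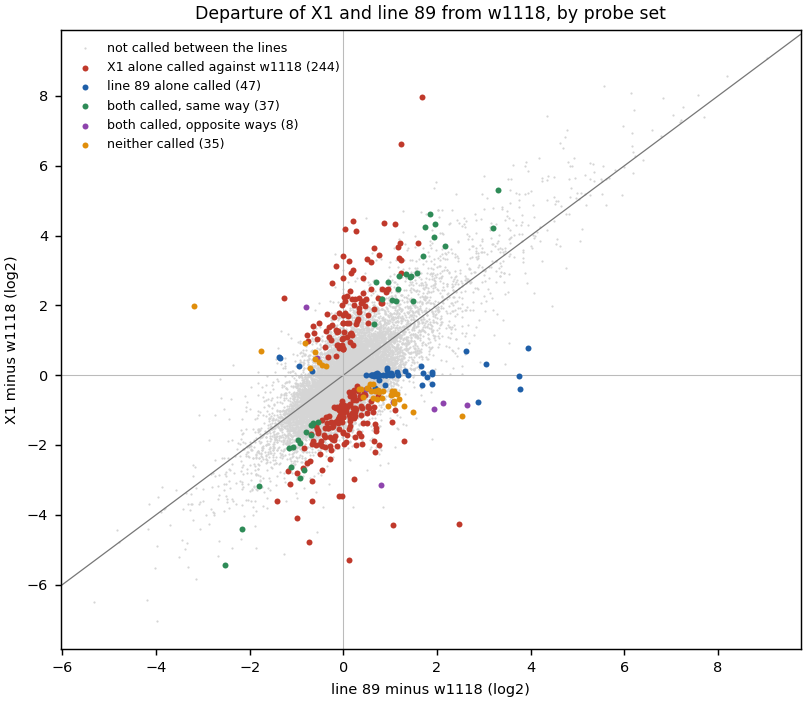
Each point is a probe set, with the log2 difference of X1 from w1118 on the vertical axis and of line 89 from w1118 on the horizontal axis, coloured by which line was called against w1118 among the 371 called between the lines. Both axes share the w1118 arrays, so the slope of the cloud is not a result. Points off the diagonal are those that differ between the lines, and 244 are called in X1 alone and 47 in line 89 alone.

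The largest rise in X1 over line 89 was that of scpr-C, which encodes a secreted protein of the SCP family. Its intensity was 3698, 3916 and 4415 in X1, against 73.8 and 35.0 in line 89 and 6.85 and 7.40 in w1118. The difference was 6.30 ± 0.33 (adjusted p = 0.00913), a 78.7-fold higher level in X1. X1 departed by at least 249.9-fold from w1118, and line 89 lay above w1118 in both arrays without being called (log2 1.67, adjusted p = 0.0865).

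CG14109 had intensities of 6864, 6566 and 6337 in X1, against 88.8 and 367 in line 89 and 1704 and 1618 in w1118. X1 was 36.5-fold above line 89 (5.19 ± 0.60, adjusted p = 0.0349). Here w1118 lay between the lines, and neither was called against it.

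A pair of developmental transcription factors rose in X1, and in both X1 alone departed from w1118. The homeodomain gene even-skipped (eve), a pair-rule gene of the embryo, stood at 272, 281 and 289 in X1, against 23.2 and 2.12 in line 89 and 8.35 and 7.70 in w1118 (3.86 ± 0.17, adjusted p = 0.00913). HLH3B, a basic helix-loop-helix factor, stood at 313, 400 and 488 in X1, against 30.1 and 12.9 in line 89 and 27.4 and 16.9 in w1118 (4.17 ± 0.39, adjusted p = 0.0306). For both genes line 89 was near the floor, as w1118 was, and every X1 array was far above it.

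Another 4 genes completed the 8 largest rises, and X1 alone was called against w1118 in each. Ten-a, a teneurin that helps neurons match with their synaptic partners, was at 184, 302 and 302 in X1, against 18.4 and 28.6 in line 89 and 50.01 and 61.9 in w1118. Line 89 thus lay below w1118 in both arrays without being called (log2 -1.28, adjusted p = 0.148). The other two probe sets of Ten-a were not called. CG8001 was at 1269, 1048 and 918 in X1, against 109 and 84.7 in line 89 and 52.3 in both w1118 arrays. Osi19, of the Osiris family of insect membrane proteins, was at 262, 196 and 93.9 in X1, against 8.67 and 15.9 in line 89, a rise of at least 10.6-fold. CG13694 was at 135, 188 and 152 in X1, against 9.77 and 16.3 in line 89. The X1 arrays spread more widely for Osi19 than for the other three.

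The largest fall in X1 was that of CG4783. Its intensity was 0.979, 6.28 and 11.03 in X1, against 4295 and 669 in line 89 and 399 and 236 in w1118. Every X1 array was under the floor, so X1 was at least 106-fold lower than line 89 (-6.73 ± 0.81, adjusted p = 0.0387). X1 departed from w1118, and line 89 lay above w1118 without being called (log2 2.47, adjusted p = 0.25). The 2-copy line 89 array was far brighter than the 1-copy array here.

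CG4757 was at 26.2, 74.6 and 104 in X1, against 3687 and 1702 in line 89 and 2304 and 2303 in w1118, a fall of 5.41 ± 0.69 on the log2 scale (adjusted p = 0.0418). Irk1, a potassium channel of the inward rectifier family, was at 154, 171 and 223 in X1, against 1892 and 4640 in line 89 and 5698 and 4332 in w1118. A second probe set of Irk1 was near the floor in all arrays. In both genes X1 alone was called against w1118. The 2-copy line 89 array was below both w1118 arrays for Irk1.

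In mthl8, a receptor of the methuselah family, line 89 was the line that departed. Its brighter probe set read 11.8, 20.6 and 4.38 in X1, against 337 and 289 in line 89 and 32.9 and 12.3 in w1118 (-4.16 ± 0.34, adjusted p = 0.0232). The second probe set read 8.03, 12.3 and 10.4 in X1, against 118 and 128 in line 89 and 27.3 and 28.6 in w1118, and for it both lines were called, on opposite sides of w1118.

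Glucose dehydrogenase (Gld) was at 10.3, 10.4 and 12.1 in X1, against 218 and 147 in line 89 and 26.5 and 31.4 in w1118. X1 was at least 11.2-fold lower than line 89 (-3.48 ± 0.19, adjusted p = 0.00913), with w1118 between the lines and both called against it. The other falls among the 8 largest, CecB, edin and BomBc2, belong to the immune genes described further below.

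**Figure D3:**
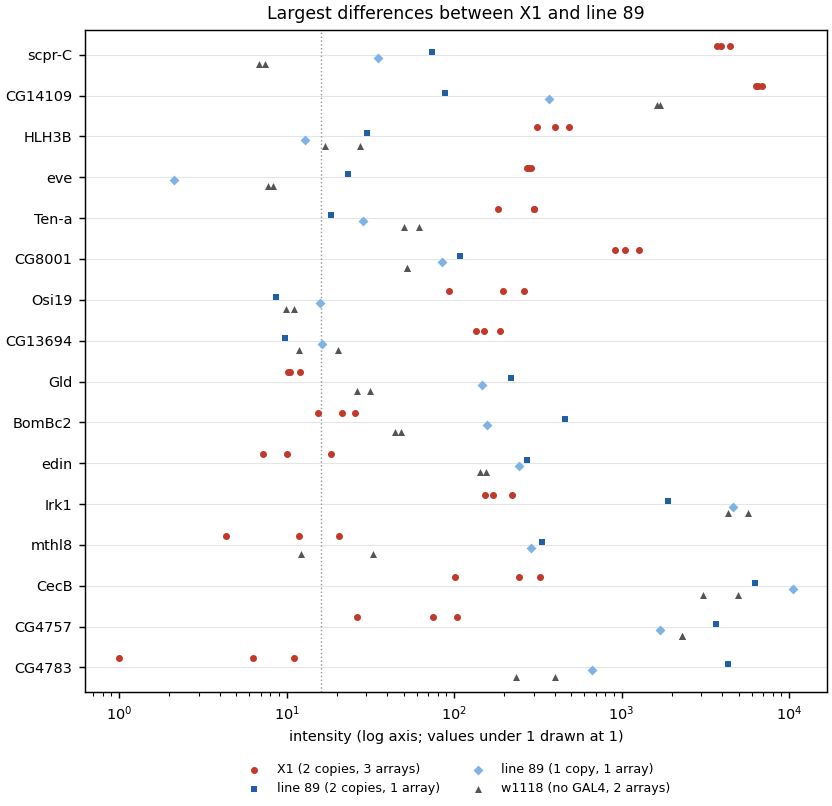
Each row is a gene, with its intensity in all 7 arrays on a log axis. X1 arrays are circles, line 89 a square for 2 copies and a diamond for 1 copy, and w1118 arrays triangles, with the floor of 16 as a dotted line. Line 89 sits with w1118 for eve and HLH3B, apart from w1118 for mthl8 and Gld, and on the far side of w1118 from X1 for CG14109.

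Where line 89 alone departed, most calls were rises in line 89. The tubulin isotype betaTub97EF was at 74.3, 85.1 and 97.1 in X1, against 990 and 588 in line 89 and 52.8 and 47.2 in w1118. The difference of X1 from line 89 was -3.17 ± 0.26 (adjusted p = 0.0232), and line 89 was 3.93 above w1118 on the log2 scale (adjusted p = 0.00563). Only 4 probe sets were of the reverse kind, lowered in line 89 alone. Of these, CG10126 was at 6542, 6892 and 6641 in X1, against 1497 and 2181 in line 89 and 5265 and 4153 in w1118. Pastrel (pst), a gene known for resistance to fly C virus, was at 2553, 1819 and 1798 in X1, against 608 and 522 in line 89 and 1350 and 1518 in w1118.

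Both lines moved the same way, X1 farther, in 21 rises and 16 falls. Jasper, a chromatin protein, was at 5418, 4551 and 4116 in X1, against 736 and 624 in line 89 and 212 and 170 in w1118. Kahuli (Kah), a zinc finger factor of the Snail type, was at 448, 468 and 387 in X1, against 99.6 and 57.1 in line 89 and 24.2 and 21.3 in w1118. The levels of both genes stood in the order X1, line 89, w1118 with no overlap. Among the falls, ldd was at 19.6, 45.1 and 24.7 in X1, against 187 and 237 in line 89 and 1077 and 1367 in w1118. A second probe set of ldd, lower in both lines than in w1118, was not called between them (-0.58, adjusted p = 0.454). CG16820 was at 9.12, 10.5 and 8.47 in X1, against 71.8 and 58.6 in line 89 and 125 and 122 in w1118.

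For some genes neither line was called against w1118. CG17266 was at 169, 91.3 and 129 in X1, against 19.4 and 26.7 in line 89 and 71.0 and 84.3 in w1118. CG13707 was at 175, 355 and 299 in X1, against 1596 and 1481 in line 89 and 613 and 498 in w1118. The contrast between the lines passed the threshold in both genes (2.47 and -2.54), while the separate departures did not.

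The chaperonin CCT, an 8-subunit ring that folds actin and tubulin, had 4 of its 8 subunit genes called higher in X1, where 0.985% of all genes were. This family was picked after its values were seen, so its count is a description. All 8 subunit genes were brighter in every X1 array than in either line 89 array, by 0.93 to 2.09 on the log2 scale (median 1.48, beside -0.14 over all 11982 genes). Every X1 array was above both line 89 arrays for 12.3% of all genes. CCT7 was at 1676, 2397 and 2039 in X1, against 379 and 591 in line 89 and 582 and 620 in w1118 (2.09 ± 0.25, adjusted p = 0.0376). CCT5 was at 2467, 3557 and 3112 in X1, against 768 and 687 in line 89 and 786 and 706 in w1118 (2.05 ± 0.18, adjusted p = 0.0269). CCT1 (1.88) and CCT4 (1.28) were the other two called. For these 4 genes X1 alone departed.

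CCT2, CCT3, CCT6 and CCT8 had differences of 0.93, 1.19, 1.04 and 1.69 and adjusted p of 0.0715, 0.0596, 0.118 and 0.0668. The summed intensity of the 8 genes was 14232, 16836 and 15159 in X1, against 5770 and 5067 in line 89 and 5756 and 5901 in w1118. The sum in line 89 was close to that in w1118, but 7 of the 8 genes were lower in line 89 than in w1118 (median -0.29) and CCT3 was higher (0.73), none of them called. All 8 differences were positive in all 20 alternatives, and the number called ran from 0 to 6. As the lines did not overlap for these genes, only the scalings and the replicate block could have reversed a sign.

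Of prefoldin, a complex that hands unfolded tubulin and actin to CCT, 1 of 6 subunits was called. That subunit, merry-go-round (mgr), was at 538, 518 and 543 in X1, against 261 and 251 in line 89 and 369 and 388 in w1118 (1.06 ± 0.07, adjusted p = 0.013). In mgr the lines stood on opposite sides of w1118. The 5 Pfdn genes had differences between -0.25 and 0.36.

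Among 25 heat shock proteins and other chaperones, limma called 0, with 8 at an unadjusted p under 0.05, where 2.36% of all genes were called. The median difference was 0.13. Stip1, a co-chaperone that links Hsp70 and Hsp90, was at 4856, 8950 and 8076 in X1, against 2179 and 1055 in line 89 and 1538 and 1762 in w1118, with an adjusted p of 0.0801. Hsp70 itself, whose promoter drives the transgene, is covered by 5 probe sets that match several Hsp70 genes at once. None was called, and the brightest of the Hsp70B copies read 5019, 2524 and 2192 in X1, against 10184 and 4230 in line 89 and 462 and 2822 in w1118. Arrays of the same line differed by 2-fold or more there, and the 2-copy line 89 array was the highest.

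Several immune effector genes were lower in X1 than in line 89. Flies make antimicrobial peptides through the Toll and Imd pathways. In a family of 23 antimicrobial and immune-induced peptides, also picked after values were seen, 0 were called higher and 5 lower, where 1.38% of genes were lower. CecB, a cecropin, was at 102, 243 and 325 in X1, against 6259 and 10548 in line 89 and 4993 and 3075 in w1118. The fall was 5.34 ± 0.59 on the log2 scale (adjusted p = 0.034), and X1 alone departed.

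The immune-induced gene edin was at 18.6, 7.198 and 10.05 in X1, against 273 and 246 in line 89 and 155 and 143 in w1118 (-3.95 ± 0.11, adjusted p = 0.00223). Here line 89 was also called above w1118. BomBc2, a bomanin of the Toll response, was at 15.4, 25.7 and 21.5 in X1, against 457 and 157 in line 89 and 44.3 and 48.2 in w1118. For BomBc2 neither line was called against w1118, and line 89 lay farther above it (log2 2.53) than X1 lay below it (-1.16). DptB, a diptericin of the Imd response, was at 98.7, 53.7 and 68.8 in X1, against 299 and 278 in line 89 and 221 and 267 in w1118. IM33 was the fifth, with a difference of -2.28. X1 was below w1118 in every array for all 5 genes.

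Others of the family were low in X1 without being called. Metchnikowin (Mtk) was at 154, 92.8 and 105 in X1, against 806 and 452 in line 89 (adjusted p = 0.070), and BomT2 at 21.4, 7.54 and 7.57 against 235 and 78.3 (adjusted p = 0.0664). The brightest members behaved otherwise. Defensin (Def) was at 13471, 13665 and 13680 in X1, against 13017 and 15624 in line 89 and 3385 and 1415 in w1118, so both lines stood above w1118 and alike. Drsl6 was at 13797, 14425 and 14152 in X1, against 13337 and 13375 in line 89 and 12653 and 13595 in w1118. Drsl2 was at 4710 in X1 replicate 1 and at 63.4 and 82.4 in replicates 2 and 3, against 190 and 121 in line 89. A separate list of 40 innate immunity genes did not hold edin, BomBc2 or IM33. In it 2 were lower (CecB and DptB), 0 higher, and the median was -0.01.

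**Figure D4:**
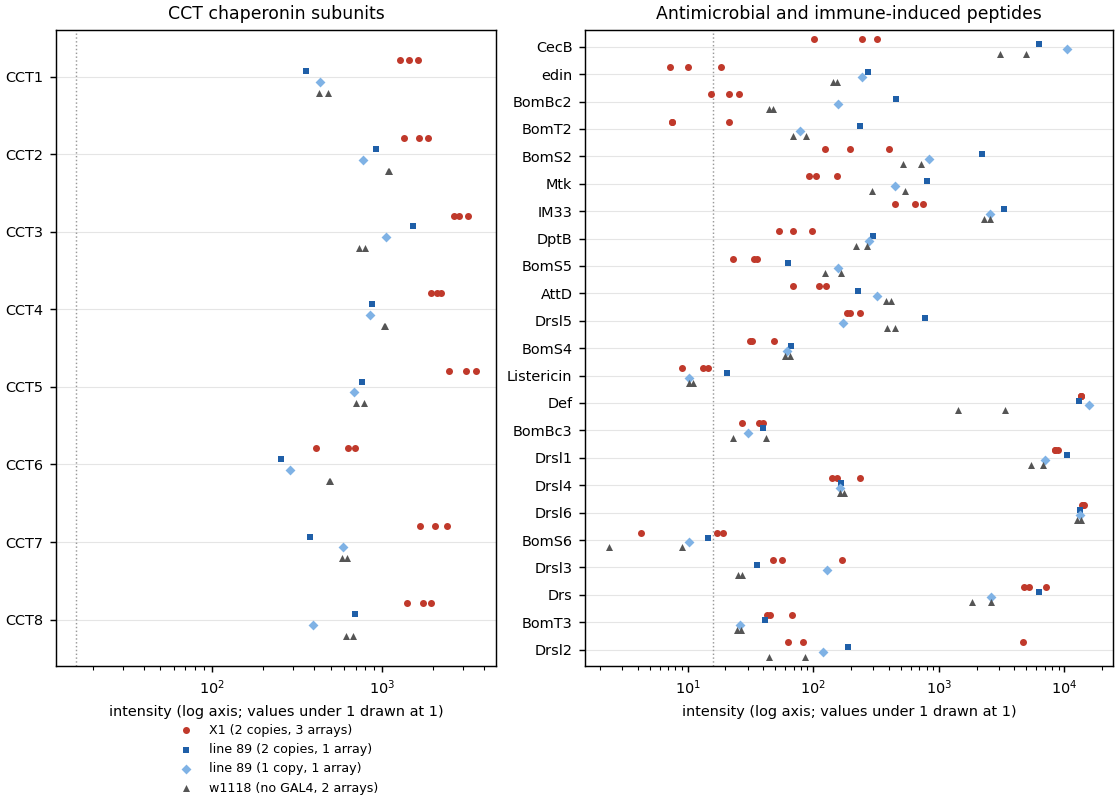
Rows are genes and points the intensity in each of the 7 arrays on a log axis, X1 as circles, line 89 as a square (2 copies) and a diamond (1 copy), w1118 as triangles, with the floor of 16 dotted. On the left all 8 CCT subunits are brighter in every X1 array than in both line 89 arrays, as were 12.3% of all genes. On the right the peptides are ordered from the most lowered in X1 at the top, and the X1 arrays of Def and Drsl1 lie between the 2 line 89 arrays.

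Pathway genes chosen by function were called at about the share of all genes. Over all 30 lists, 979 genes were measured, of which 7 were higher and 18 lower, where 2.36% of all genes were called. The ecdysone receptor EcR was the 1 called of 28 ecdysone response genes. It was at 283, 285 and 333 in X1, against 719 and 914 in line 89 and 749 and 727 in w1118 (-1.44 ± 0.14, adjusted p = 0.0324), with X1 alone departing. Of 150 detoxification genes, 1 was higher and 4 lower. The glutathione transferase GstT3 was at 1204, 1323 and 1256 in X1, against 217 and 358 in line 89 and 136 and 111 in w1118. The cytochrome P450 gene Cyp309a1 was at 65.4, 61.0 and 59.4 in X1, against 262 and 185 in line 89 and 113 and 95.9 in w1118, and the glycosyltransferase Ugt302C1 was 3.33-fold lower in X1. For GstT3 X1 alone was called against w1118, and line 89 lay above w1118 in both arrays without being called (log2 1.19, adjusted p = 0.0904). For Cyp309a1 w1118 lay between the lines.

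Among 72 mitochondrial ribosomal proteins, mRpL4 and mRpL10 were higher and 0 lower. mRpL4 was at 156, 83.7 and 101 in X1, against 14.2 and 15.2 in line 89 and 12.9 and 14.9 in w1118, at least 6.85-fold higher in X1. mRpL10 differed by 1.58. The list's median was -0.22, below that of all genes. Of 76 oxidative phosphorylation genes, the complex I subunits ND-13B (-1.09) and ND-SGDH (-0.73) were lower.

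The galactose pathway is the GAL4 target in yeast. Of its 8 measured fly genes, Galt, the uridylyltransferase, was lower. It was at 70.8, 66.4 and 72.9 in X1, against 121 and 112 in line 89 and 112 and 100.3 in w1118 (-0.73 ± 0.09, adjusted p = 0.0411). The hexokinase Hex-C was the 1 called of 16 glycolytic genes, at 75.3, 74.0 and 56.8 in X1, against 33.2 and 32.4 in line 89 and 33.1 and 34.0 in w1118. In both genes X1 alone departed from w1118.

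Lists with 0 calls in limma were the Eig71E secreted genes (0 of 9), cell death (0 of 18), autophagy (0 of 25), JNK and JAK/STAT signalling (0 of 18), insulin and TOR signalling (0 of 12), cytosolic ribosomal proteins (0 of 41), the circadian clock (0 of 11) and sex composition markers (0 of 9). At an unadjusted p under 0.05 these lists had 2, 2, 5, 6, 2, 4, 2 and 1 members. With 2.36% of all genes called, lists this short would hold few or no calls in any case. Having 0 calls therefore does not set them apart or show them unchanged.

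Single members of other lists were lower in X1, where 1.38% of all genes were. These were the peroxiredoxin Prx6c (-1.75, 1 of 19 antioxidant genes), the replication origin subunit Orc2 (-1.18, 1 of 25 cell cycle genes), the adipokinetic hormone receptor AkhR (-1.01, 1 of 23 lipid genes), the proteasome ATPase Rpt2 (-0.89, 1 of 40), Sec16 of endoplasmic reticulum exit sites (-0.82, 1 of 55 secretory genes) and the TFIID subunit Taf13 (-0.72, 1 of 53 transcription factors and coactivators). In Taf13 both lines were below w1118, and in the others X1 alone was called against w1118. For Rpt2 line 89 lay farther from w1118, on its other side (log2 0.51, adjusted p = 0.0552), than X1 did (-0.37, adjusted p = 0.0465). Of 107 cuticle and chitin genes, the chitinase Cht2 was at 2402, 1960 and 1891 in X1, against 698 and 620 in line 89 and 272 and 304 in w1118. Cpr49Ac, a cuticle protein, was 2.54-fold higher in X1, and both genes were raised in both lines. Cpr47Ec was 2.28-fold lower in X1, where line 89 alone departed. Of 10 peroxins, also picked after values were seen, Pex14 (1.40) and Pex16 (0.85) were higher, where 0.985% of all genes were. Both are neighbours on 3L. The median of the peroxins was -0.07, and 5 of the 10 differences were negative. Of 14 methuselah-like receptors picked in the same way, mthl10 (2.82) was higher, and mthl8 and mthl15 (-0.66) were lower. Other probe sets of mthl10 (1.67) and mthl15 (0.40) were not called.

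Of all genes, 2.36% were called, so short lists of markers of other tissues would hold few calls in any case. Papilin (Ppn, -0.82) was the 1 called of 18 hemocyte markers and thetaTry (0.98), a trypsin, the 1 of 19 midgut markers. In limma 0 of 11 fat body, 15 muscle, 16 neuron, and 19 disc and tracheal markers were called between the lines, with 2, 3, 2 and 3 at an unadjusted p under 0.05. The summed intensity of the hemocyte list was 5256 to 6844 in X1 and 7334 and 8109 in line 89. The midgut list summed to 478 to 660 in X1 and 963 and 778 in line 89. The muscle list summed to 13742 to 14201 in X1, 14148 and 14387 in line 89, and 1400 and 1364 in w1118. TpnC73F, a troponin C, made up most of that sum, at 12639, 12712 and 12930 in X1, against 12379 and 12389 in line 89 and 160 and 169 in w1118. The part of other tissues in the differences between the lines was not tested, and in bulk RNA fewer cells of a type and less RNA per cell cannot be told apart.

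Called genes lay on every major chromosome arm. The share called was 3.36% on X, 2.47% on 3L, 2.22% on 3R, 2.13% on 2L, 1.77% on 2R and 0 of 65 genes on chromosome 4. Gene order was taken from the Release 6 gene table. There were 2 runs of 3 measured neighbours called the same way, 1 in each direction, and 13 runs of a pair.

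The run of higher genes, on 3L, was CG10725, CG10140 and CG14109. CG10725 was at 210, 316 and 326 in X1, against 31.7 and 49.98 in line 89 and 33.1 and 35.7 in w1118. CG10140 was at 7474, 7418 and 7646 in X1, against 1167 and 1075 in line 89 and 2047 and 1852 in w1118 (2.75 ± 0.08, adjusted p = 0.00236). The next gene along, cmb, was at 743, 1139 and 829 in X1, against 57.2 and 321 in line 89 and 58.2 and 61.5 in w1118, and was not called. The 3 neighbours on the other side, CG10154, CG10713 and CG14105, read at most 61.1 in any array and were not called. The departing line was not the same along the run, being X1 alone for CG10725 and both lines on opposite sides for CG10140.

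The run of lower genes, on 2L, was CG3513, CG16713 and IM33. CG16713 was at 1492, 1992 and 2086 in X1, against 6480 and 8170 in line 89 and 7474 and 7015 in w1118. IM33 was at 445, 644 and 753 in X1, against 3330 and 2562 in line 89 and 2575 and 2274 in w1118. CG3513 was dimmer, at 54.6, 56.4 and 65.5 in X1, against 107 and 133 in line 89 and 234 and 217 in w1118. The gene before them, CG16704, was at 713, 242 and 348 in X1, against 1639 and 1684 in line 89, and was not called. Line 89 sat with w1118 for CG16713 and IM33 and between X1 and w1118 for CG3513. CG4757 and Ugt302C1, both lower in X1, were neighbours on 3R.

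**Figure D5:**
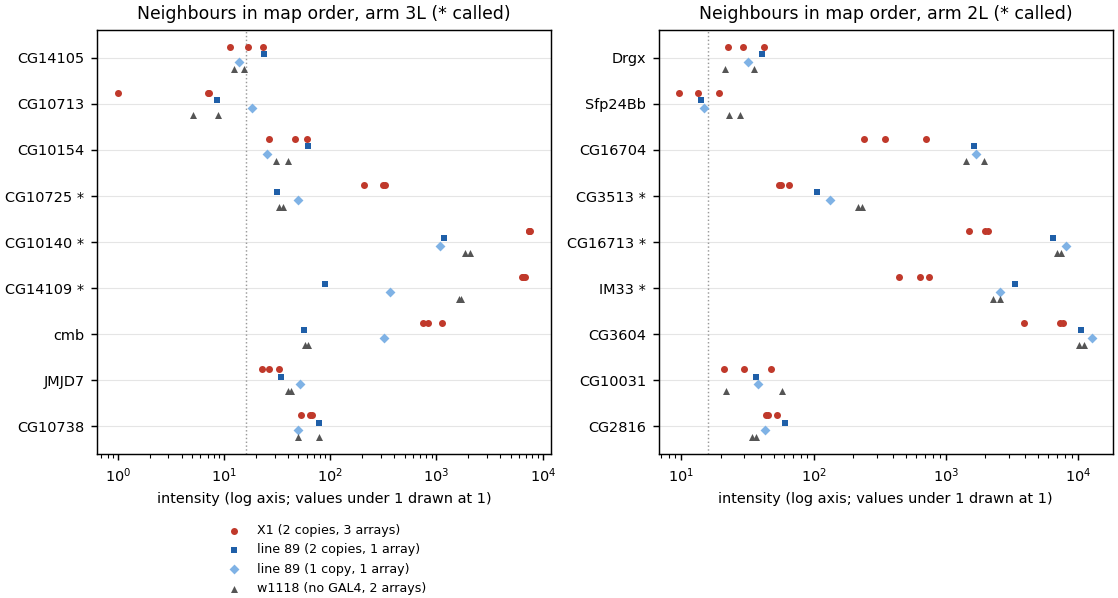
Rows are measured genes in map order around the run of higher genes on 3L (left) and of lower genes on 2L (right), with called genes starred. Points are intensities in the 7 arrays on a log axis, X1 as circles, line 89 as a square (2 copies) and a diamond (1 copy), and w1118 as triangles, with the floor of 16 dotted. The lines overlap again at CG10154 and CG10738 on the left and at Sfp24Bb and CG10031 on the right.

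Other genes stood above w1118 in both lines with little difference between them. Of the probe sets called above w1118 in both lines, 405 were not called between them. For 200 of these the 95% interval of X1 minus line 89 lay within 1 log2 unit of 0. The 5 with the largest shared rise were CG9733, CG9449, CG15861, CG3770 and laza, a phosphatidic acid phosphatase. CG9733 was at 7099, 9995 and 9056 in X1, against 9725 and 7332 in line 89 and 2.56 and 6.22 in w1118, with a difference between the lines of 0.03 ± 0.20. CG3770 was at 10793, 11575 and 11561 in X1, against 10808 and 10279 in line 89 and 67.4 and 74.7 in w1118, with a difference of 0.10 ± 0.08. The other three differed by 0.38, -0.29 and 0.08. All 5 were many times brighter in every array of both lines than in w1118.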

How the data were processed

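The deposited table holds linear intensity values that the authors made with dChip and normalised to 1 baseline array, whose median was 145 per the series text. Which dChip version or expression model they used is not stated there. The 183 Affymetrix control probe sets were left out of the tests, and 0 columns belonged to samples outside the series. Of 18769 fly probe sets, 13647 had 1 gene symbol, 402 several and 4720 none. Of 11982 genes, each read by its brightest such probe set, 11893 matched the Release 6 gene table, used for names and order only.

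Values were floored at 16, converted to log2 and fitted with lmFit and eBayes of limma 3.58.1 under R 4.3.3 (two-sided) to all 7 arrays in 3 groups, leaving 4 residual degrees of freedom. Tables and figures were made with Python 3.11.15, pandas 2.3.3 and matplotlib 3.10.9. A fold is a lower bound, written "at least", where all arrays of the dimmer line lay at or below 16. The series text calls the X1 and the w1118 arrays biological replicates; for line 89 the 2 arrays differ in copy number. For arrays, their number limits the precision. The fit was tested on simulated data with changes in X1 alone. It called 4 of 50 rises of 2-fold, 18 of 50 of 4-fold and 32 of 50 of 8-fold. Of falls of 2-fold it called 1 of 50, and of unchanged probe sets 10 of 18569. Those 10 were a larger share of the simulated calls than the threshold of 0.05 aims at. The changed probe sets had a w1118 level above 100 and were not among the brightest. Noise was drawn independently for each array, with no shift of a whole array. These rates therefore need not hold for the deposited values, least of all for dim probe sets.

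Named genes were the 8 largest called rises and falls (1 symbol, no overlap between lines, and a brighter mean no lower than the median over probe sets), the 2 largest per departure class and direction, up to 2 called members per list and direction, 5 alike genes, the 3 longest runs of neighbours and the Hsp70 probe sets. The rule also named white, roX1 and roX2, which are not reported here. The 30 lists, members and tests were chosen with earlier results of these data known, and 5 families were added after values were seen. Other genes named (Stip1, TpnC73F, Sgs3, Sgs7 and the neighbours of runs) were also chosen so. Promoter sequence was not used here. Alternatives were 2 other floors, 3 scalings, other variance models, groupings, a brightness filter, a stricter threshold, a replicate block and each array left out.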

Additional observations from a re-analysis of the deposited data

Results flagged for a closer look

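For 8 probe sets X1 and line 89 were each called against w1118 on opposite sides of it, and the difference between the lines was itself called. On the log2 scale, X1 minus line 89 was -3.95 for edin, -3.48 for Gld, -2.94 for the second probe set of mthl8, 2.75 for CG10140 and 1.06 for mgr, as described above. The other three were CG12096, tok and CG15293. CG12096 was at 86.1, 67.5 and 83.5 in X1, against 632 and 538 in line 89 and 148 and 158 in w1118, a difference of -2.89. Tolkin (tok), a secreted metalloprotease related to Tolloid, was at 141, 171 and 170 in X1, against 532 and 599 in line 89 and 298 and 245 in w1118, a difference of -1.82. CG15293 was near the floor throughout, and its difference was -0.87. The w1118 arrays of these genes lay between the 2 lines.

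A pair of Affymetrix control probe sets outside the tests were bright in all GAL4 arrays and at or under the floor in w1118. AFFX-Dm-K01486-1_at read 1407, 2348 and 1854 in X1, against 2367 in line 89 with 2 copies, 417 with 1 copy, and 14.4 and 14.1 in w1118. AFFX-Dm-U55943-1_x_at read 596, 467 and 519 in X1, against 1495 and 1010 in line 89 and 0.782 and 0.0633 in w1118. For the first, line 89 with 2 copies was level with the highest X1 array and line 89 with 1 copy was below all X1 arrays. The second was higher in both line 89 arrays than in all X1 arrays. The tables used here do not say what these probe sets detect.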

How the results depend on the processing

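Of 61 called values, 56 were followed through 20 alternatives and 5 through 19. Their sign held in every alternative for 58, a floor of 64 took Orc2, AkhR and mthl15 to 0, and calls held in 1 to 17 alternatives (median 9). Apart from the scalings and the replicate block, the alternatives could not have reversed a sign. Counts moved more. The counts are given in the order calls, higher, lower, X1 alone against w1118, and list members called, and were 371, 137, 234, 244 and 25 as reported. A floor of 1 gave 62, 29, 33, 48 and 2. A floor of 64 gave 113, 49, 64, 67 and 6. A fit of 4 groups by copy number gave 1478, 419, 1059, 610 and 96. Robust variance gave 181, 87, 94, 128 and 9, and no moderation 67, 26, 41, 36 and 3. An adjusted p under 0.01 gave 23, 12, 11, 11 and 0. Quantile normalisation gave 250, 139, 111, 157 and 10, a common median 362, 232, 130, 236 and 16, hybridization scaling 315, 89, 226, 125 and 10, and a variance trend 256, 102, 154, 147 and 13. A brightness filter at 100 gave 405, 192, 213, 286 and 25. The 5 arrays without w1118 gave 70 calls, 27 higher and 43 lower, with 1 list member and no classes. With arrays set to a common median, the median log2 difference over all probe sets was 0, against -0.11 as reported. The replicate block in limma gave 0 calls, with 2455 probe sets at an unadjusted p under 0.05, and 0 in every other count. Deviations of same-numbered X1 and w1118 arrays correlated at -0.05 and -0.01, so the numbers were not taken to pair the arrays. Leaving out 1 array gave 0 to 1138 calls, 0 to 408 higher, 0 to 786 lower, 0 to 645 for X1 alone and 0 to 76 list members. Precision was limited by 4 residual degrees of freedom and, for dim probe sets, by the floor. The cause of these shifts was not tested.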
